A study of Schizosaccharomyces pombe with 6 samples.

Results

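This account is about 4 genes of fission yeast. They are the phosphate-regulated genes pho1 (SPBP4G3.02), pho84 (SPBC8E4.01c) and tgp1 (SPBC1271.09), and SPBC1271.10c, the transporter gene beside tgp1. They were taken by their identifiers, as genes chosen for study with earlier results of these data known, and are 4 of the 6878 features in the deposited count files. All 4 genes had enough reads to be tested, among 1716 tested features. Small RNA from Ago1 pull-downs was counted in Schizosaccharomyces pombe cells 24 h after nitrogen was removed (24h, 3 libraries) and in growing cells before its removal (0h, 3 libraries). Both groups were the wild-type h+ strain 975, grown in the minimal medium EMM with adenine, histidine, leucine, lysine and uracil at 225 µg/ml and 32 °C; the 24h cells were washed into EMM lacking nitrogen. The pull-down used beads against the FLAG peptide, while the labels of both groups named a wild-type strain and no tagged allele, and the binding to Ago1 is as the labels state it. Gel slices held RNA of 20 to 30 nucleotides. No label said whether the replicates came from separate cultures, so the p-values measure the spread between these libraries, which may be technical.

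Fission yeast represses its phosphate acquisition genes while phosphate is plentiful. Pho84 imports inorganic phosphate, Pho1 is a secreted acid phosphatase that frees phosphate outside the cell, and Tgp1 imports glycerophosphodiesters, from which phosphate can be recovered. Upstream of pho84, pho1 and tgp1, long noncoding RNAs (prt2, prt and nc-tgp1) are transcribed on the same strand towards and across the promoter, and this interferes with transcription of the gene downstream. Premature termination of the noncoding RNA, or loss of phosphate, lets the gene be expressed through the transcription factor Pho7. Argonaute carries small RNAs that Dicer cuts from double-stranded RNA, and in this yeast they guide the histone methyltransferase Clr4 to chromatin.

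The 4 genes lay in 2 places on chromosome II. In the reference annotation (assembly ASM294v3, used for names and order because the files were made on ASM294v2), pho84 and pho1 stood in tandem on the same strand, with only the noncoding RNA prt, listed there as nc-pho1, starting between them. In the annotation nc-pho1 ran into pho1, prt2 into pho84 and nc-tgp1 into tgp1, each on the strand of the gene, so reads of the gene and of the noncoding RNA over the shared stretch cannot be told apart in the counts. Each of the 4 genes was also overlapped by a noncoding RNA on the opposite strand (SPNCRNA.6617 for pho1, SPNCRNA.6616 for pho84, SPNCRNA.4681 for tgp1 and SPNCRNA.4680 for SPBC1271.10c), and reads of these were not analysed here. The other place held tgp1 and SPBC1271.10c, which pointed towards each other and overlapped at their ends on opposite strands.

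The libraries were shallow after the authors' filtering. Features took 54393, 249986 and 758789 reads in the 24h libraries and 48040, 112578 and 145861 in the 0h libraries. This was 2.26 to 5.39% of the aligned reads of a 24h library and 0.495 to 0.601% of those of a 0h library, a difference that decides the size of any change given per aligned read. As a check of the labels, 4 genes known to be induced without nitrogen, isp4, isp7, ste11 and mei2, were all higher in every 24h library, with log2 fold changes of 3.63, 2.78, 4.21 and 4.53. The check is a weak one: the values are small RNA, not mRNA, and 24.3% of all tested features were likewise higher without overlap.

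Small RNA over the 3 transporter genes rose after nitrogen removal, and small RNA over the phosphatase gene pho1 fell relative to other features, a fall not seen per aligned read. By the edgeR fit SPBC1271.10c was 16.9-fold higher at 24h, pho84 3.04-fold higher and tgp1 22.7-fold higher. On 3 reads in all at 0h, tgp1 was 15.9-fold higher by pooled counts (95% counting interval 5.39 to 77.7, counting error only). SPBC1271.10c was 13.6-fold higher by pooled counts. The level of pho1 was 10.7-fold lower at 24h, a size that rested on 0h replicate 3 and was 3.12-fold without that library. All 4 genes passed the test (quasi-likelihood test of edgeR, p adjusted by Benjamini-Hochberg over all 1716 features, threshold 0.05), 3 higher and 1 lower, where 25.9% of tested features were called, 13.1% as higher and 12.8% as lower. In all 4 genes the groups did not overlap, which also held for 44.0% of tested features, 24.3% higher and 19.7% lower. DESeq2 called the same 4 genes in the same directions, where it called 28.7% of features, 14.7% as higher. These values are scaled by TMM, a normalization that assumes most features keep their level, and on it the median feature was at -0.02. The libraries pool many cells, so small RNA in fewer cells and less small RNA per cell cannot be told apart.

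**Figure D1:**
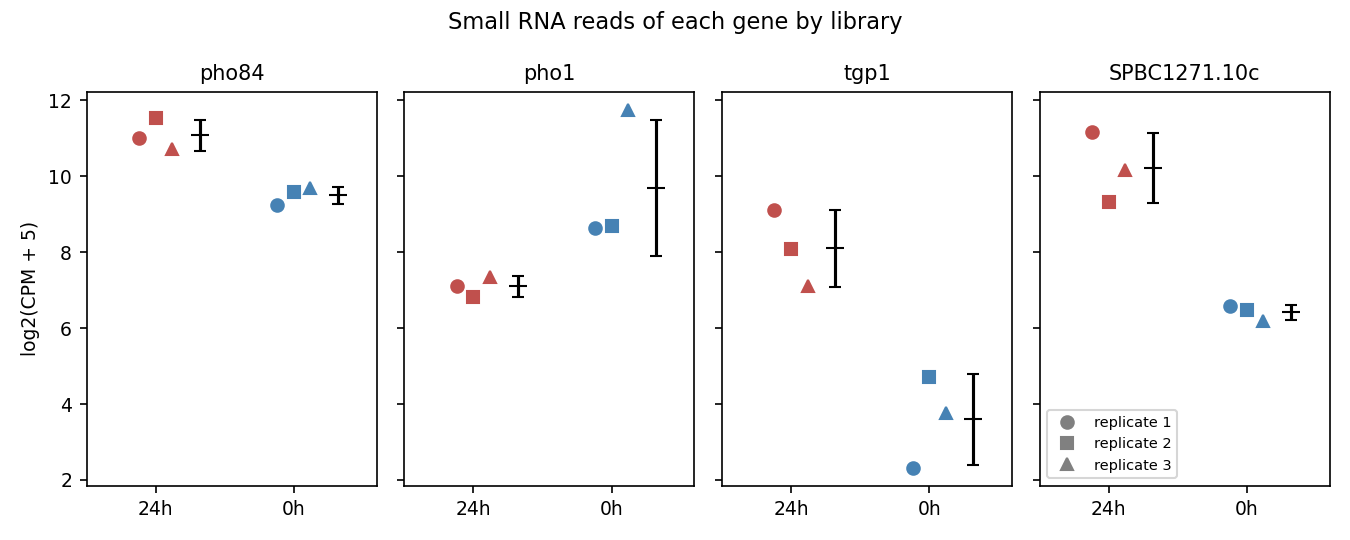
Level of small RNA over each gene as log2(CPM + 5), with 1 point per library, 24h left of 0h in each panel, and the mean ± SD (n = 3) beside the points. The 24h points lie above the 0h points for pho84, tgp1 and SPBC1271.10c and below them for pho1, where 0h replicate 3 stands at 3443 CPM against 392 and 412 CPM in the other 0h libraries.

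Pho84, the inorganic phosphate transporter, had 137, 1171 and 1398 reads in the 24h libraries and 20, 72 and 96 reads in the 0h libraries. As CPM, the count scaled to 1000000 assigned reads with TMM factors applied, these were 2046, 2948 and 1686 CPM at 24h and 602, 760 and 818 CPM at 0h. Every 24h library was above every 0h library. Pho84 averaged 2227 ± 651 CPM at 24h, against 727 ± 112 CPM at 0h (mean ± SD of 3 libraries each). The log2 fold change was 1.61 (SE 0.42, edgeR adjusted p = 0.0181). The call rested on 2 of the 0h libraries: without 0h replicate 1 the adjusted p was 0.0618 and without 0h replicate 2 it was 0.0937, while the change stayed at 1.48 and 1.64.

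Tgp1, the glycerophosphodiester transporter, had 37, 105 and 110 reads at 24h and 0, 2 and 1 reads at 0h. The 24h levels were 553, 264 and 133 CPM and the 0h levels 0, 21.1 and 8.52 CPM. A count of 0 in 0h replicate 1 allows a level of up to 90.3 CPM (3 counts), which is below every 24h library. The 3 levels at 24h spread over 4.17-fold, and all 3 lay above every 0h library. The fitted log2 fold change was 4.50 (SE 0.81, edgeR adjusted p = 0.00367). It was 5.38 without 0h replicate 2, which held 2 of the 3 reads, and the fitted size depends on those few reads.

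SPBC1271.10c, annotated only as a transporter, had 153, 254 and 951 reads at 24h and 3, 8 and 8 reads at 0h. The levels were 2285, 640 and 1147 CPM at 24h and 90.3, 84.5 and 68.2 CPM at 0h. The 0h libraries lay within 1.33-fold of each other and the 24h libraries within 3.57-fold, and the lowest 24h library was still far above the highest 0h library. SPBC1271.10c averaged 1357 ± 843 CPM at 24h, against 81.0 ± 11.5 CPM at 0h (mean ± SD of 3 libraries each). The log2 fold change of 4.08 (SE 0.58, edgeR adjusted p = 0.00153) was exceeded by that of 17 of the 1716 tested features, and that of tgp1 by 10. Leaving out each library in turn kept the change of SPBC1271.10c between 3.55 and 4.41, with adjusted p no higher than 0.00938.

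Pho1, the secreted acid phosphatase, had 9, 43 and 132 reads at 24h and 13, 39 and 404 reads at 0h. After scaling the levels were 134, 108 and 159 CPM at 24h and 392, 412 and 3443 CPM at 0h. The 24h libraries sat close together, and 0h replicates 1 and 2 did too, while 0h replicate 3 was 8.36-fold above the higher of the other 0h libraries. The SD of log2(CPM + 5) was 0.27 at 24h and 1.78 at 0h, where the medians over all tested features were 0.37 at 24h and 0.52 at 0h. The log2 fold change was -3.42 (SE 0.80, edgeR adjusted p = 0.0115), and 17 tested features had a lower one. Without 0h replicate 3 it was -1.64 (SE 0.36, adjusted p = 0.0156), so the fall passed on the other libraries at a smaller size. Without 24h replicate 1 the change was -3.37 and adjusted p was 0.0601.

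**Figure D2:**
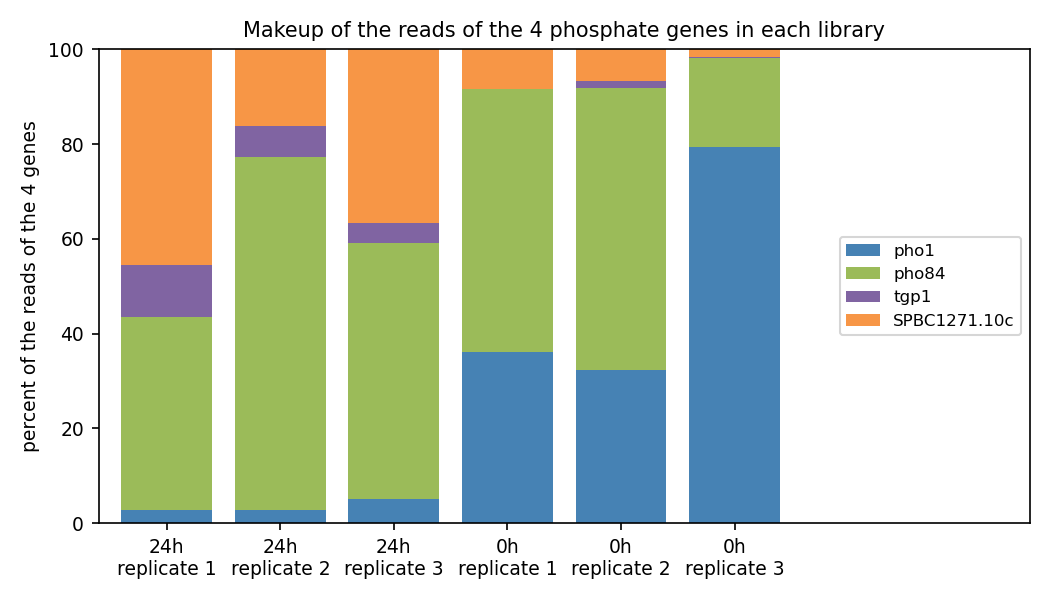
Share of each gene in the summed reads of the 4 genes, in percent, with 1 bar per library and the 24h libraries left of the 0h libraries. Pho1 holds 2.68 to 5.09% of these reads at 24h and 32.2 to 79.4% at 0h, and SPBC1271.10c 16.1 to 45.5% at 24h and 1.57 to 8.33% at 0h.

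The makeup of the reads from the 4 genes was thus different in the 2 groups. Pho1 gave 3.50% ± 1.38 of their reads at 24h, against 49.2% ± 26.2 at 0h (mean ± SD of 3 libraries each). SPBC1271.10c gave 32.8% ± 15.1 at 24h and 5.51% ± 3.51 at 0h, and tgp1 7.31% ± 3.43 at 24h and 0.616% ± 0.903 at 0h. The share of pho84 overlapped between the groups, at 56.4% ± 17.0 at 24h and 44.6% ± 22.4 at 0h. The sum of the 4 genes came to 0.529% ± 0.163 of the reads on features at 24h, against 0.177% ± 0.150 at 0h. These sums overlapped, with 24h replicate 3 at 0.341% and 0h replicate 3, the library rich in pho1 reads, at 0.349%.

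Ratios of 2 genes within a library do not depend on how the library is scaled, and they set the genes of each locus against each other. The pair pho84 and pho1, which stand in tandem, had different ratios in the 2 groups: there were 15.2, 27.2 and 10.6 pho84 reads per pho1 read in the 24h libraries and 1.54, 1.85 and 0.238 in the 0h libraries. On the log2 scale, with 0.5 added to each count, the ratio was 4.00 ± 0.69 at 24h, against -0.20 ± 1.63 at 0h (mean ± SD of 3 libraries each), a difference of 4.20. No 24h library overlapped a 0h library (two-sided exact permutation p = 0.10, the smallest that 3 against 3 libraries can give; 0.12 adjusted over 6 pairs). Leaving out 0h replicate 3, which held the highest pho1 count, gave the lowest difference, 3.26. The ratio compares conditions, not the levels of the 2 genes, since counts were not divided by gene length.

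The convergent pair SPBC1271.10c and tgp1 did not separate the groups. There were 4.14, 2.42 and 8.65 SPBC1271.10c reads per tgp1 read in the 24h libraries. At 0h, counts of 3 against 0, 8 against 2 and 8 against 1 gave ratios that could only be set roughly. The log2 ratio was 2.14 ± 0.92 at 24h, against 2.36 ± 0.54 at 0h (mean ± SD of 3 libraries each), a difference of -0.22 whose groups overlapped (exact permutation p = 0.80, adjusted p = 0.80 over 6 pairs). The sign turned to 0.21 when 1 rather than 0.5 was added to each count, so no difference between these neighbours was detectable at this depth, which does not show that they changed alike.

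Across the 2 loci, the ratios of SPBC1271.10c and of tgp1 to pho84 were higher in each 24h library than in each 0h library, though at 3 against 3 libraries no exact test can pass. The log2 ratio of SPBC1271.10c to pho84 was -0.87 ± 1.21 at 24h and -3.05 ± 0.48 at 0h, and that of tgp1 to pho84 -3.00 ± 0.98 at 24h, against -5.41 ± 0.58 at 0h (mean ± SD of 3 libraries each). The groups were close for SPBC1271.10c over pho84, with -2.20 in 24h replicate 2 and -2.55 in 0h replicate 1, a library with 3 reads over SPBC1271.10c and 20 over pho84. For tgp1 over pho84 the 0h side rested on 0, 2 and 1 tgp1 reads, and the difference of 2.40 became 1.87 with 1 added to each count. At the floor of 3 reads for a count of 0, 0h replicate 1 would lie above 24h replicates 2 and 3. The separation of tgp1 over pho84 therefore depends on the number added to the counts. Against pho1 the differences were larger, 6.38 for SPBC1271.10c and 6.60 for tgp1 in log2 units. These 4 pairs and the pair of pho84 and pho1 did not overlap between groups (exact permutation p = 0.10 each, 0.12 adjusted over 6 pairs), and each kept its direction without any 1 library. The pairs share genes and are not independent of each other.

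**Figure D3:**
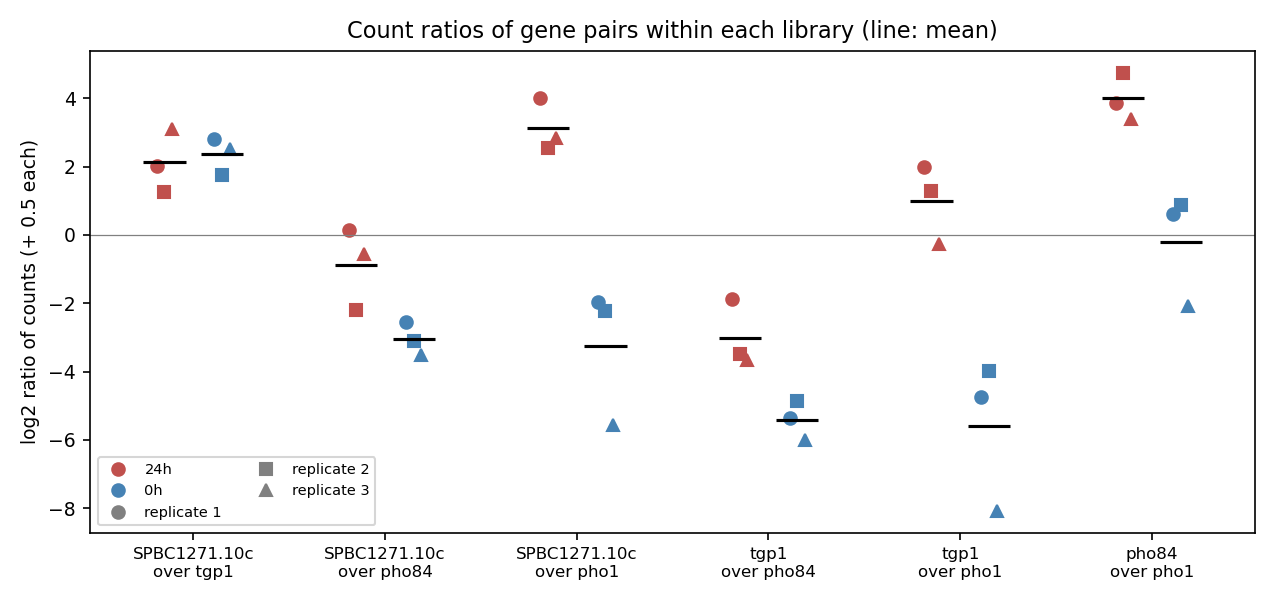
Log2 ratio of the counts of each pair of genes (0.5 added to each count) in every library, with 24h left of 0h for each pair and a line at the mean of 3 libraries. The groups overlap for SPBC1271.10c over tgp1, at 2.14 at 24h and 2.36 at 0h on average, and do not overlap for the other 5 pairs.

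The choice of scale changed the size of the rises and decided the fall. With library totals in place of TMM the median of all tested features moved to 0.69, and per aligned read to 3.55. Per aligned read 94.1% of tested features were called, 93.9% higher and 0.233% lower. With library totals 38.6% were called, 33.1% higher and 5.54% lower. Pho84, tgp1 and SPBC1271.10c were called higher on each scale, at 5.35, 8.07 and 7.42 per aligned read (edgeR adjusted p of 3.07e-07, 2.37e-11 and 2.10e-10). Relative to the median feature their positions hardly moved, at 1.79 for pho84, 4.52 for tgp1 and 3.87 for SPBC1271.10c per aligned read and 1.62, 4.52 and 4.09 with TMM. A change of scale moves all features by nearly the same amount, so this follows from the subtraction and is no further support.

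Pho1 was called lower with TMM and with library totals (-2.74, edgeR adjusted p = 0.0179), and was at -0.09 per aligned read (SE 0.74, adjusted p = 0.901). As CPM of aligned reads, pho1 stood at 5.50, 9.27 and 3.93 in the 24h libraries and at 1.34, 1.74 and 16.6 in the 0h libraries. On that scale 0h replicates 1 and 2 lay below every 24h library and 0h replicate 3 above all of them (exact permutation p = 1). The fall of pho1 is therefore a fall relative to the other features. Its log2 fold change minus that of the median feature was -3.65 per aligned read and -3.40 with TMM. The nearness of these values follows from the subtraction and is no further support. With TMM the log2 fold change itself was -1.64 when 0h replicate 3 was left out. As CPM of aligned reads, pho84 averaged 126 ± 112 at 24h and 3.07 ± 0.953 at 0h. Tgp1 averaged 16.2 ± 11.2 at 24h and 0.0434 ± 0.0446 at 0h. SPBC1271.10c averaged 58.9 ± 32.8 at 24h and 0.332 ± 0.0236 at 0h (SD over 3 libraries, exact permutation p = 0.10 for each gene, 0.133 adjusted over 4 genes). The 3 genes did not overlap between groups on that scale, which held for 92.7% of tested features, 92.3% higher and 0.350% lower.

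**Figure D4:**
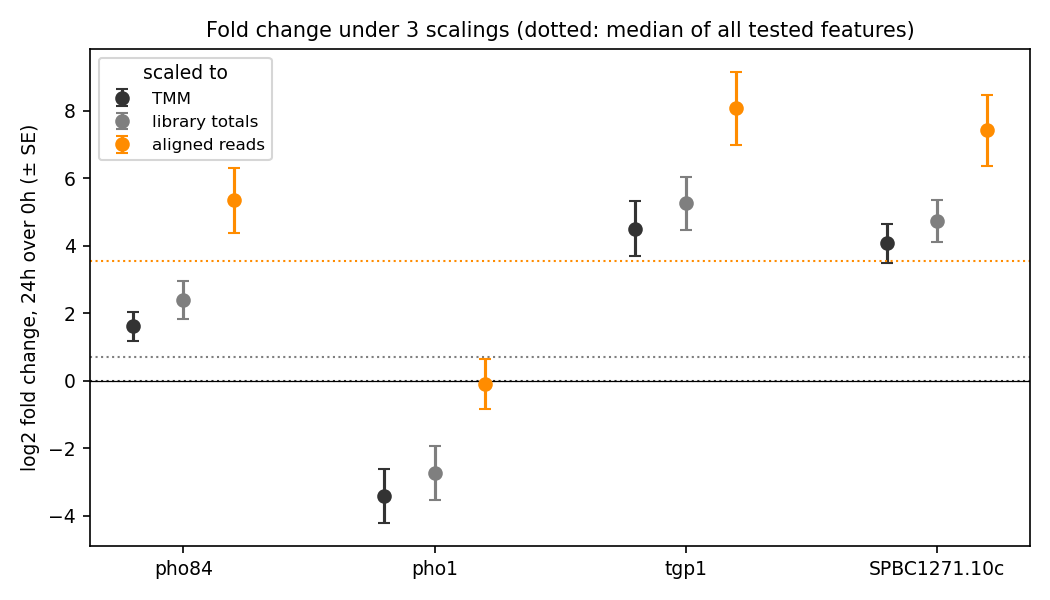
Log2 fold change of 24h over 0h (edgeR, bars are the SE) for each gene under 3 scalings, with dotted lines at the median of all 1716 tested features (-0.02 with TMM, 0.69 with library totals, 3.55 with aligned reads). Pho1 is at -3.42, -2.74 and -0.09 and lies below the dotted line of the same colour each time, while the other 3 genes lie above theirs.

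Within 3 places on either side, the annotation listed 13 other features, of which 4 had a row in the count files; the other 9, nc-pho1 and nc-tgp1 among them, were not analysed here. The row SPBC8E4.02c, an older identifier that the reference gives for prt2, the noncoding RNA upstream of pho84, held 7, 30 and 151 reads at 24h and 2, 4 and 6 reads at 0h. Its levels of 105, 75.5 and 182 CPM at 24h were all above the 60.2, 42.2 and 51.1 CPM at 0h. The log2 fold change of 1.36 (SE 0.51) did not pass (edgeR adjusted p = 0.0702). It was 0.71 (adjusted p = 0.320) without 24h replicate 3, the library with most of its reads, and 1.69 (adjusted p = 0.0242) without 24h replicate 2. Without each 0h library in turn it did not pass, nor with the size factors of DESeq2 in edgeR (1.36, adjusted p = 0.0709). It passed on library totals (1.97) and on aligned reads (4.54), where 33.1% and 93.9% of all tested features were called higher. With no filter it also passed (1.67, edgeR adjusted p = 0.0145), where 479 of 6207 features were called higher. With the replicate block it did not (1.32, edgeR adjusted p = 0.0510). The row may not cover all of the transcript now annotated.

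On the other locus, SPNCRNA.1343 (ncRNA.1343), a noncoding RNA beyond nc-tgp1, had 3, 0 and 11 reads at 24h and 0, 1 and 0 at 0h, too few to test. Pet802, the nearest protein-coding gene on the other side of SPBC1271.10c, had 1, 6 and 5 reads at 24h and 4, 1 and 1 at 0h, also too few to test. The fourth row, SPNCRNA.446, had no read in any library. The rows of SPNCRNA.1343 and pet802 held fewer reads at 24h than either tgp1 or SPBC1271.10c. Counts were not divided by gene length, so levels cannot be compared between these genes, and reads outside annotated features were tallied without a position.

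Most other genes of phosphate handling did not pass, at shares close to those of all tested features, which is no result about these genes. The list held 13 genes, 12 had a row and 9 were tested: 1 was higher, 1 was lower and 7 did not pass, beside 13.1% higher and 12.8% lower among all tested features. The median log2 fold change of the 9 was 0.56, and -0.02 over all tested features. Pqr1, a ubiquitin ligase that limits phosphate uptake, rose by 2.98 (SE 0.47, edgeR adjusted p = 0.00218), with 284, 335 and 264 CPM at 24h and 30.1, 63.3 and 17.0 CPM at 0h. On 9 reads at 0h, its change was 3.82 with 0h replicate 2 left out and 2.39 with 0h replicate 3 left out, and it passed without each library in turn. Pho4, an acid phosphatase repressed by thiamine, fell by 4.85 (SE 0.51, adjusted p = 0.000494), with 0, 22.7 and 14.5 CPM at 24h and 301, 412 and 673 CPM at 0h. Per aligned read pho4 was at -1.36 and did not pass (adjusted p = 0.104).

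The other 7 tested genes of the list did not pass. Pho842, another phosphate transporter, was at 0.89 (SE 0.34, edgeR adjusted p = 0.0739), with 538, 637 and 435 CPM at 24h and 301, 243 and 324 CPM at 0h. Pho7, the transcription factor that activates pho1, pho84 and tgp1, was at 1.30 (SE 0.50, adjusted p = 0.0804), with 9 reads over the 0h libraries. The polyphosphate synthesis genes vtc2 and vtc4 were at 0.87 and 0.56, the inositol pyrophosphate kinase gene asp1 at 0.36, the alkaline phosphatase gene pho8 (SPBC14F5.13c) at 0.53, and the glycerophosphodiesterase gene gde1 at -0.68. With library totals 6 of the 9 passed as higher, where 33.1% of all tested features did. Csk1, pef1 and aps1 had too few reads to test, and csk1 had 16 reads at 24h and none at 0h. Set against a floor of 3 counts at 0h, the pooled ratio of csk1 was 1.01, so its counts do not show a rise.

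**Figure D5:**
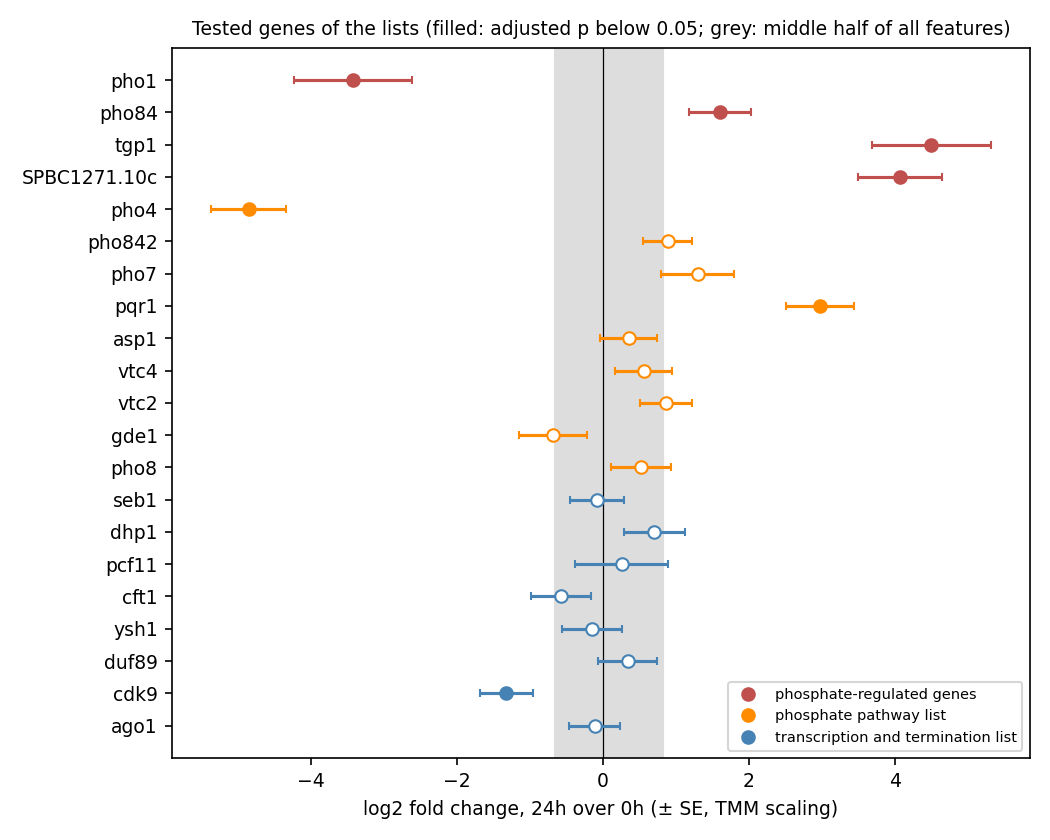
Log2 fold change of 24h over 0h (edgeR with TMM, bars are the SE) for each tested gene of the 4 genes (red), the phosphate list (orange) and the transcription and termination list (blue), filled where adjusted p was below 0.05, with the grey band from the lower to the upper quartile of all 1716 tested features (-0.66 to 0.82). Tgp1 at 4.50 and SPBC1271.10c at 4.08 are the highest points and pho4 at -4.85 and pho1 at -3.42 the lowest, while the transcription and termination factor genes stay between -1.32 and 0.71.

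A list of 22 genes held factors that act on transcription of the noncoding RNAs, their termination and decay, and ago1 itself. Of these only 8 had enough reads to be tested, so most of the list is not covered: 1 was lower and 0 higher by edgeR, with 0 higher at an unadjusted p below 0.05 and 0 by DESeq2, and the median was -0.09. A share of 1 in 8 is close to the 12.8% of all tested features called lower, and is no result about these genes. Cdk9, a kinase of the RNA polymerase II tail, fell by 1.32 (SE 0.36, edgeR adjusted p = 0.0207), with 44.8, 42.8 and 55.5 CPM at 24h and 151, 116 and 119 CPM at 0h. The direction was the opposite per aligned read (2.08), and the call was lost with library totals and when any 1 of 4 libraries (24h replicates 1 and 2, 0h replicates 2 and 3) was left out. The nuclear exonuclease gene dhp1 was at 0.71, the cleavage factor gene cft1 at -0.57 and the phosphatase gene duf89 at 0.34, and none of the 3 passed.

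The levels of pho84, tgp1 and SPBC1271.10c over the 6 libraries, as log2(CPM + 5), correlated at 0.94 (pho84 and tgp1), 0.86 (pho84 and SPBC1271.10c) and 0.92 (tgp1 and SPBC1271.10c), and each correlated negatively with pho1, between -0.77 and -0.70. The 6 points fall into the 2 groups and share their libraries, so these values are a description only. By the same measure, among features within 4-fold of the mean level of each gene, the nearest was pyp2 for SPBC1271.10c (r = 0.997), a stress phosphatase gene, then ndi1 (0.990) and nep2 (0.986). For tgp1 they were bms1 (0.993), sts5 (0.982) and mak3 (0.982), for pho84 ptr1 (0.982), ste11 (0.966) and SPBC887.17 (0.956), and for pho1 rpl42 (0.984), rad24 (0.971) and pgi1 (0.952). The fold changes of the 3 nearest to pho1 were small beside its own, between -0.77 and -0.63, and did not pass.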

How the data were processed

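Per the labels, small RNA of 3 libraries at 24h and 3 at 0h was sequenced; cutadapt, Bowtie2 2.1.0, HTSeq 0.6.1 and the build ASM294v2 are named in the submitters' processing notes, with no options. The deposited files hold raw counts made by the authors, for 6878 features and 5 tally lines, which were kept out of totals and tests. Reads set aside for low mapping quality were 90.3 to 96.4% of aligned reads, so repeated sequence is under-counted. Counting used strand, since 492 of 576 features that lie wholly within an opposite-strand feature had reads. The setting, and so whether reads are sense or antisense to a gene, is not given in the sources used here.

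From these counts, edgeR 4.0.16 in R 4.3.3 was run on all features: TMM, filterByExpr with a minimum count of 10, robust quasi-likelihood fit on group, two-sided, Benjamini-Hochberg, threshold 0.05. SE is the log2 fold change over the square root of F. Alternatives were DESeq2 1.42.0, other scalings and filters, the replicate block and each library left out. Exact permutation tests used scipy 1.17.1. Intervals and the 3-count floor cover counting error only. Identifiers were matched without regard to case to RefSeq ASM294v3 (6714 of 6878), for names and order only.

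Genes named are the 4 genes, the tested genes of the phosphate list, up to 4 of the factor list with the smallest p, and flanking features with 10 or more counts. For likeness, the 3 tested features with the highest r within 4-fold of the mean CPM of each gene are named. The 4 genes and the lists were chosen with earlier results of these data known.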

Additional observations from a re-analysis of the deposited data

How the results depend on the processing

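The directions of pho84, tgp1 and SPBC1271.10c held under every scaling, filter, test and left-out library in which each was tested; tgp1 was not tested at a minimum count of 30. Without each library in turn the log2 changes ran from 1.35 to 1.72 for pho84, 4.01 to 5.38 for tgp1, 3.55 to 4.41 for SPBC1271.10c and -3.87 to -1.64 for pho1. Adjusted p in edgeR ran up to 0.0937, 0.0216, 0.00938 and 0.0601. Per aligned read pho1 was at -0.094, its call lost. The log2 ratio of its means per aligned read was -0.08, and from -0.56 to 2.02 without each library in turn, and above 0 when 24h replicate 1 (0.0068), 24h replicate 3 (0.17) or 0h replicate 3 (2.02) was left out. The log2 ratio of SPBC1271.10c to tgp1 turned to 0.21 with 1 added to each count, and ran from -0.71 to 0.21 without each library, above 0 when 24h replicate 2 (0.21) or 0h replicate 1 (0.0026) was left out. The cause was not tested.

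Of all features, 224 were higher and 220 lower. These counts were 568 and 95 with library totals, 1611 and 4 per aligned read, 100 and 76 at a minimum count of 30 (543 features tested), and 479 and 337 with no filter. They ran from 110 to 204 and from 147 to 235 without each library. The phosphate list had 6 higher with library totals, 8 per aligned read, 4 with no filter and 2 with DESeq2, and 0 lower per aligned read and at a minimum count of 30. The factor list had 1 higher with library totals and 8 per aligned read. It had 0 lower on both, at a minimum count of 30 and with no filter. Without each library in turn it had 0 to 1 lower. Pho4 and cdk9, the gene called lower on each list, were not tested at a minimum count of 30. Per aligned read gde1 (2.56), cdk9 (2.08), cft1 (3.00), seb1 (3.62), ysh1 (3.43), ago1 (3.50), plt1 (3.19) and SPBC4.06 (3.24) changed direction. With library totals cft1 (0.15), seb1 (0.68), ysh1 (0.58), ago1 (0.64), plt1 (0.38) and SPBC4.06 (0.31) did. Without each library in turn prt2 ran from 0.71 to 1.69 and pqr1 from 2.39 to 3.82. Asp1 ran from -0.0192, without 0h replicate 3, to 0.62.

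Libraries of the 2 groups share replicate numbers, which no label ties to a batch. Deviations of same-numbered libraries correlated at 0.048, 0.14 and 0.17 over tested features, each library most with its own number. With the replicate block, calls were 279 higher and 271 lower (16.3 and 15.8% of features), and the log2 changes were 1.58 for pho84, 4.25 for tgp1, 3.80 for SPBC1271.10c and -2.82 for pho1, all still called.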

Other observations

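Families that the reference annotation groups by product were looked at after the values had been seen. Of 7 genes annotated as phosphate transporters, 6 were tested and 2 rose, pho84 and pho841. Pho841 rose by 3.37 (SE 0.55, edgeR adjusted p = 0.00247), with 77, 430 and 1680 reads at 24h and 5, 20 and 7 reads at 0h, and 1419 ± 526 CPM at 24h, against 140 ± 76.3 CPM at 0h (mean ± SD of 3 libraries each). Pho842 (0.89), SPBC1703.13c (0.78), pho843 (0.05) and plt1 (-0.32) did not pass. Of 5 genes annotated as acid or alkaline phosphatases, 4 were tested; pho1 and pho4 fell, and pho8 (0.53) and SPBC4.06 (-0.44) did not pass. Among all tested features 13.1% were higher and 12.8% lower.

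Pho1 was not the only feature high in 0h replicate 3. Of 1712 tested features with a read in 0h replicate 1 or 2, 13 stood at 5 or more times the higher of those libraries, with a median over all of 0.807. Pho1, at 8.36, ranked after 5 others: the tRNA features SPATRNATHR.03 (15.3) and SPBTRNAGLY.05 (15.1), pof1 (13.7, on 17 reads in 0h replicate 3), SPBPB2B2.06c (11.6, on 41 reads) and SPMITTRNAALA.01 (8.38). Pho84 was at 818 CPM in that library and 760 CPM in 0h replicate 2.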
